A study of Macaca mulatta with 304 samples.

Results

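Glucocorticoids are steroid hormones, and their synthetic forms such as dexamethasone are used against inflammation. They bind a receptor that turns a set of genes on in most blood leukocytes, and 10 genes known for that response (FKBP5, TSC22D3, ZBTB16, PER1, DUSP1, KLF9, CD163, ADORA3, MAOA and SAP30) were followed here by their symbols in whole blood of irradiated rhesus macaques. All 10 were found among the 21070 genes listed, and all 10 passed the filter on low counts that left 13751 genes for testing. The study followed 28 adult macaques of the Chinese sub-strain aged 3 to 5 years, and 24 samples were controls drawn 2 days before irradiation. The upper thorax of 12 animals (6 female, 6 male) received 9.8 Gy and that of 16 animals (8 female, 8 male) received 10.7 Gy, which gave 151 and 129 samples on scheduled days from Day 3 to Day 270 and on 8 unscheduled days. All animals received an opioid painkiller for the first weeks, and all controls preceded it. By the study's protocol, animals whose breathing became fast were given dexamethasone into the muscle in decreasing doses, and a second course was possible. A further episode without response after the second course was a criterion for euthanasia. The study also states that animals with severe acute radiation syndrome between scheduled draws were euthanized and gave a last sample. The labels do not tell which animals were treated or when, nor the time of day of a draw, so the part of the drug in any value below was not tested.

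Bound by hormone, the glucocorticoid receptor leaves its HSP90 chaperones, enters the nucleus and binds DNA at paired sites that face each other across a gap. FKBP5 is a co-chaperone that lowers the receptor's affinity for hormone, so its rise is a feedback on the receptor. TSC22D3 (also called GILZ) and DUSP1, a phosphatase that switches off MAP kinases, carry part of the anti-inflammatory action. ZBTB16 and KLF9 are zinc finger transcription factors, and PER1 is a repressor of the circadian clock that also follows the daily rhythm of cortisol. CD163 is the monocyte and macrophage receptor for haemoglobin bound to haptoglobin, ADORA3 is an adenosine receptor, MAOA degrades monoamines and SAP30 belongs to a histone deacetylase complex. In blood, glucocorticoids are also known to lower circulating lymphocytes and eosinophils and to raise neutrophils. Since whole blood was sequenced, fewer cells of a type and less RNA per cell cannot be told apart.

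The paired site was searched on both strands as GNACA, any 3 bases and TGTNC, letters that read the same on either strand. From 2000 bases before to 50 after the annotated start, none of the 10 members held it, and 2.49% of the 40193 genes with such a window did. The half-site AGAACA or the reverse complement was in none of the 10 windows of 300 bases (250 before to 50 after the start), against 16.7% of 40275 genes. Its letters are stricter than an arm of the paired site as searched, GNACA or TGTNC, and these arms alone were not counted. Within the transcribed region the paired site was found 15 times, in FKBP5 (5 times), ZBTB16 (7), TSC22D3 (2) and PER1 (once), and not in the other 6 members, which span from 3039 bases (DUSP1) to 85230 bases (MAOA). This is 2.69 matches per 100 kb of the members, beside 1.37 per 100 kb over all genes. The matches in FKBP5, all in introns, are shown because this gene carries the pattern described below, with that in an exon of PER1 beside them. They are written along the gene's strand in the Mmul_10 build, with the 13 bases of the paired site in capitals.
FKBP5, chr4:133795158-133795186, plus strand: gtggttcaGGACAGTGTGTTCagcgtttg
FKBP5, chr4:133832562-133832590, plus strand: ttaactctGGACATCATGTTCtcaagata
FKBP5, chr4:133874906-133874934, plus strand: atgcagagGTACATACTGTTCctctcaac
FKBP5, chr4:133884145-133884173, plus strand: cacattcaGAACAGGGTGTTCtgtgctct
FKBP5, chr4:133901725-133901753, plus strand: atgtctctGAACATTTTGTACcactaaaa
PER1, chr16:7956376-7956404, minus strand: agccaagaGAACATGATGTTCccaagtgc

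Another site stood out when the promoters were read, so it was chosen after the sequences were seen. The letters TGACGTCA, the site bound by CREB, a factor activated by cyclic AMP, were within 300 bases around the start of PER1, DUSP1 and MAOA, against 1.29% of all genes. The 250 bases before the start of PER1 and DUSP1, which moved with FKBP5, are given with this site in capitals. A match of letters is a description and does not show binding.
PER1, chr16:7958480-7958729, minus strand: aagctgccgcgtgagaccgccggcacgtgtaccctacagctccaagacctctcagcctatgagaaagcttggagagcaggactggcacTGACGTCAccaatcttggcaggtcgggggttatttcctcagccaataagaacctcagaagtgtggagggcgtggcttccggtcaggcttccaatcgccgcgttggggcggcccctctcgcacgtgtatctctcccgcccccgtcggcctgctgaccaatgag
DUSP1, chr6:170171765-170172014, minus strand: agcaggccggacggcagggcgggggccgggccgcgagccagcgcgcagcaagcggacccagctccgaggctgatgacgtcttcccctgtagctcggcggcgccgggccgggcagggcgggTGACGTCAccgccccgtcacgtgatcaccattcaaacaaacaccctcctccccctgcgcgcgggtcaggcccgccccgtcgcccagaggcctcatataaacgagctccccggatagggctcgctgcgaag

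The total count on genes was between 2840219 and 23638161 per sample (median 8227563). FKBP5 had 619 to 12495 counts in a sample, so that counting error was small, but ADORA3, MAOA and SAP30 had medians of 25, 20 and 38 counts and single values of these 3 genes are less precise. Levels are given as CPM, counts scaled to a common library total after upper quartile scaling. Exons of ADORA3 overlap those of TMIGD3 on the same strand, and exons of ZBTB16 overlap a gene on the other strand, so reads of these pairs may be divided in a way that is uncertain. The libraries were sorted into 3 series, called A, B and C here, which the sample titles do not show. Of the controls, 20 were of series A and 4 of series C, while 61 of the 72 samples after Day 60 were of series C and the rest of series B, so that late days and library series cannot be told apart for most animals. The markers of whole blood were present in every sample, with summed T cell genes from 198 to 3697 CPM and summed neutrophil genes from 620.0 to 19077 CPM. The sample of B2007 on Day 40 stood apart with 307089 CPM in red cell genes and 30278 CPM in platelet genes, the highest of the series, and with the lowest T cell sum.

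In control blood FKBP5 ranged from 140 to 437 CPM, with a median of 219 (24 animals). In none of the 160 samples from Day 3 to Day 30 was FKBP5 above the highest control, and the same held for TSC22D3, ZBTB16, PER1 and DUSP1. From Day 40 on the level differed by animal. FKBP5 was above the highest control in 20 of the 120 later samples, from 16 animals, and reached 2648 CPM. It was above it in 5 of the 48 samples of Day 40 and Day 60 and in 15 of the 72 samples after Day 60. Over the tested genes, the median gene was above its highest control in 5 of the 120 later samples, and 20.7% of the genes were so in at least 20. Late values above all controls were thus not particular to FKBP5.

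**Figure D1:**
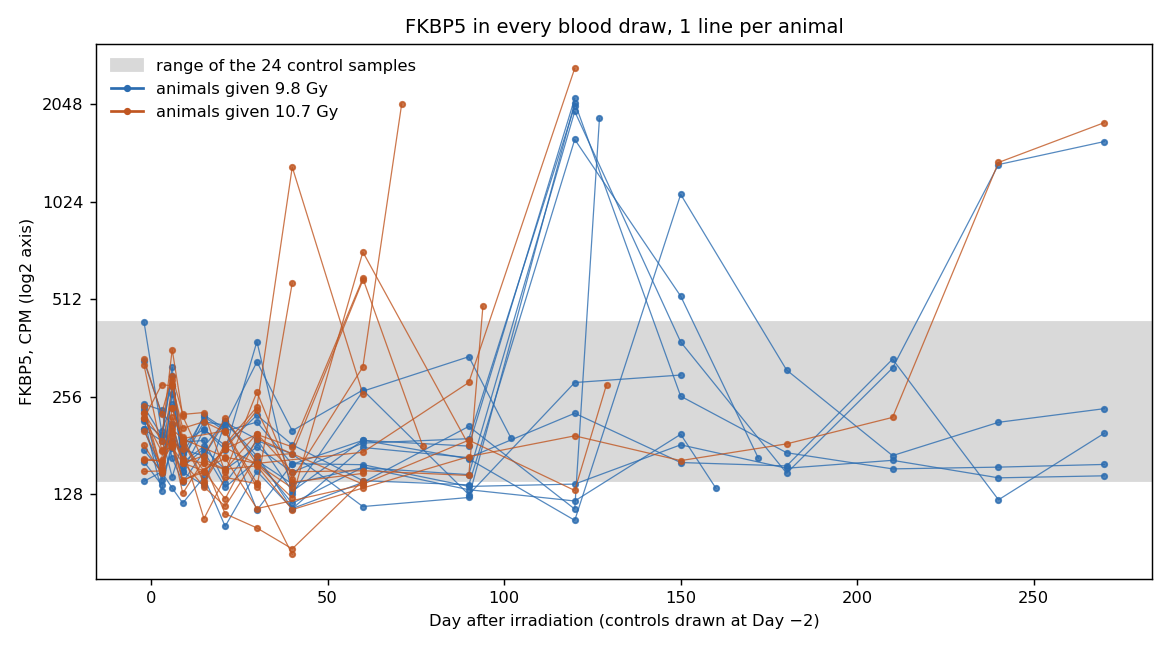
FKBP5 in CPM on a log2 axis against the day after irradiation, with 1 line per animal (blue, 9.8 Gy; orange, 10.7 Gy) and a grey band for the range of the 24 control samples, 140 to 437 CPM. No point lies above the band up to Day 30, and 20 points of 16 animals lie above it later.

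The 20 samples are given in order of day. On Day 40, B2003 had 1311 CPM and B2007, whose library stood apart, had 576 CPM. On Day 60, B2001 had 717, B2501 had 594 and B2505 had 587 CPM, and all 5 animals so far belonged to the 10.7 Gy group. Then came B2004 on Day 71 with 2057 CPM and B2504 on Day 94 with 488 CPM, both from unscheduled draws of the higher dose.

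Day 120 had the most samples with FKBP5 above the highest control, 6 of 14. FKBP5 stood at 1596 CPM in B1506, 1948 in B1503, 2027 in B1006, 2075 in B1003, 2139.7 in B1005 and 2648 in B2507, and between 106 and 283 CPM in the other 8 of the 14 animals. No value fell between 283 and 1596 CPM on that day. In B1001 FKBP5 was at 115 CPM on Day 120 and at 1857 CPM 7 days later, in an unscheduled and final draw. On Day 150, B1502 had 1080.1 and B1506 had 524 CPM. On Day 240 and Day 270, B1503 had 1335 and 1573 CPM and B2502 had 1355 and 1800 CPM, while the other 4 animals that remained were between 123 and 235 CPM.

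Relative to the animal's own control, FKBP5 in these samples was between 1.85-fold (B2501, Day 60) and 12.6-fold (B1006, Day 120) higher in the 15 animals that had one. Draws that were weeks apart do not tell how long a high level lasted. Of the 20 samples, 7 were followed by a draw of the same animal within the control range and 3 by another draw above it. The other 10 were the last sample of their animal in the series, and those of B1503 and B2502 came on Day 270, when the study ended. B1003 went from 125 CPM on Day 90 to 2075 CPM on Day 120 and to 257 CPM on Day 150, after which it stayed between 153 and 172 CPM until Day 270. B1502 went from 106 to 1080.1 and to 309.7 CPM over Days 120, 150 and 180. B1506 fell from 1596 through 524 to 165 CPM over Days 120, 150 and 172. B1503 had 2 separate high periods, with 149 CPM on Day 180 between them.

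ZBTB16, PER1 and DUSP1 were above their own highest controls (66, 107 and 518 CPM) in all 20 of these samples. These samples were picked by FKBP5, and how many of all tested genes were likewise high in all of them was not counted. The overlap is thus not shown to be particular to the members. The 20 samples were 87.0% of the 23 in which ZBTB16 was above its highest control, 83.3% of the 24 for PER1 and 62.5% of the 32 for DUSP1. TSC22D3 was above its highest control of 3133 CPM in 14 of the 20, which were 93.3% of its own 15. CD163 joined in 17 of 20, SAP30 in 13, ADORA3 in 12, MAOA in 10 and KLF9 in 9, but for CD163, SAP30, ADORA3 and MAOA these were only 16.1% to 30.9% of the samples in which the gene was above its highest control. KLF9 was above its highest control in 13 samples in all. CD163, SAP30, ADORA3 and MAOA were thus mostly high in draws in which FKBP5 was not.

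High ZBTB16, PER1 and DUSP1 were also found in samples below the highest control of FKBP5. B1503 on Day 150 had 378 CPM of FKBP5 with 77.5 CPM of ZBTB16, 195 of PER1 and 1243 of DUSP1, and B2004 on Day 60 had 317 CPM with 99.3, 245 and 1573 CPM. In both samples the 3 other genes were above their highest controls.

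CD163, ADORA3, MAOA and SAP30 were above their controls in more samples. Their highest controls were 125, 4.43, 3.73 and 5.47 CPM. In the 72 samples after Day 60 they exceeded these in 35, 34, 38 and 44 samples, where the median tested gene did so in 3 and FKBP5 in 15. Of all tested genes 1.39% exceeded their highest control in at least as many of the 120 later samples as SAP30 did, and 4.10% to 4.81% in as many as CD163, ADORA3 and MAOA. These 4 genes were also above their controls early, MAOA in 10 of 24 samples on Day 3 and SAP30 in 10 of 28 on Day 30. Over Days 3 to 30 they were so in 10 (CD163), 18 (ADORA3), 18 (MAOA) and 15 (SAP30) of 160 samples. Of all tested genes 32.4%, 19.4%, 19.4% and 23.1% were so in at least as many, so these early counts were not particular to them. The highest SAP30 (18.6 CPM) and the highest KLF9 (51.9 CPM) came from 1 sample, B2001 on Day 60, and the highest MAOA (12.4 CPM) from B1501 on Day 150. KLF9 exceeded its highest control of 29.2 CPM in 6 of 72 samples after Day 60.

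The sample with the most FKBP5, B2507 on Day 120, also held the most TSC22D3 (9136 CPM), ZBTB16 (1736 CPM), PER1 (898 CPM) and DUSP1 (3208 CPM) of the series. It held 117 CPM of CD163, 3.16 of ADORA3 and 1.94 of MAOA, each within the control range, and 5.58 of SAP30, above it. B1003 on Day 120 had 551 CPM of ZBTB16, 618 of PER1, 2502.9 of DUSP1 and 4590 of TSC22D3, with CD163 (216 CPM) and ADORA3 (4.98 CPM) above their highest controls, SAP30 (3.49 CPM) within the control range and MAOA (0.83 CPM) below it. B1006 on the same day combined both patterns, with 533 CPM of ZBTB16 and the highest CD163 of the series, 774 CPM. ZBTB16 spanned the widest range of the members, from 12.2 CPM (B1502, Day 120) to 1736 CPM (B2507) within that day.

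**Figure D2:**
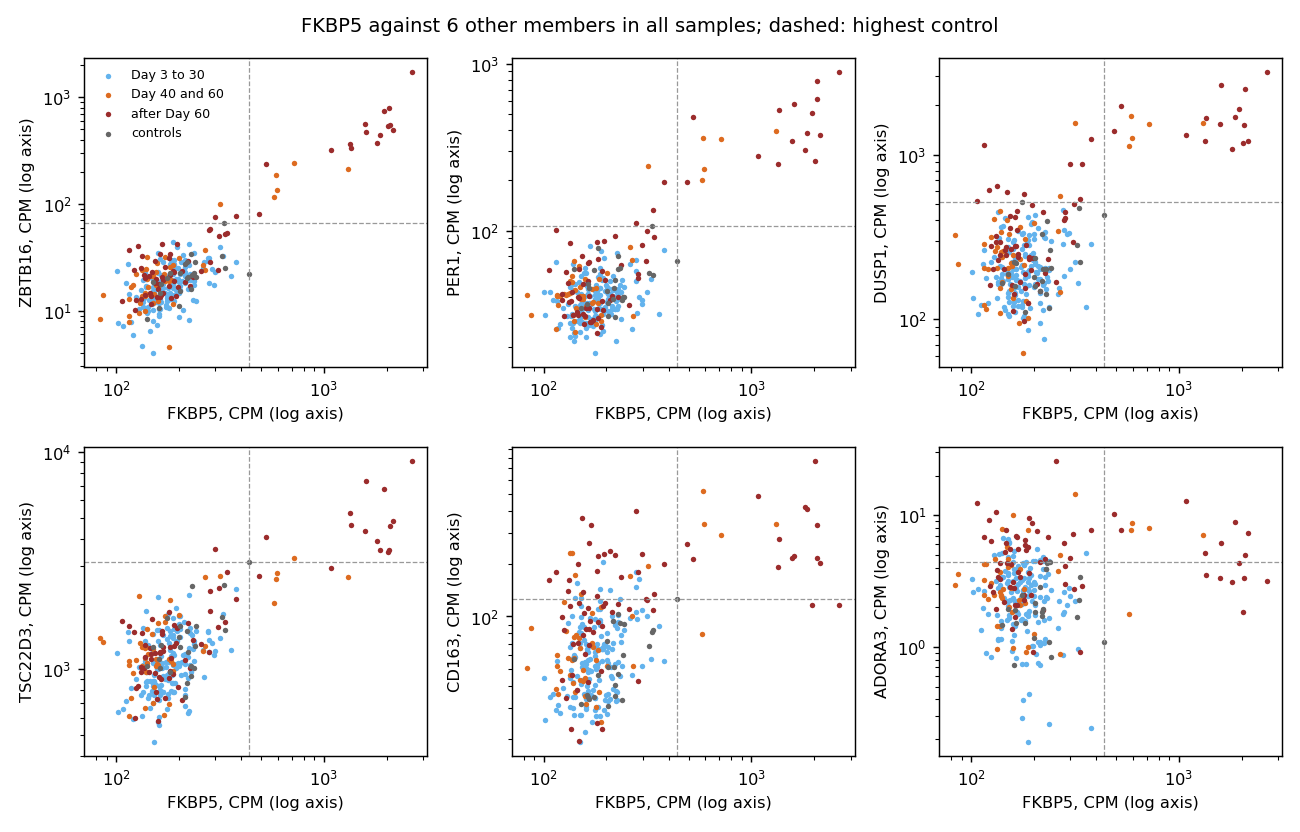
FKBP5 (x axis, CPM, log scale) against ZBTB16, PER1, DUSP1, TSC22D3, CD163 and ADORA3 (y axes, CPM, log scale) in all samples, coloured by period, with dashed lines at the highest control of each gene. The 20 samples to the right of the vertical line all lie above the horizontal line for ZBTB16, PER1 and DUSP1, whereas 12 of them do so for ADORA3.

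Levels were next compared with each animal's own control on each of the 15 scheduled days by edgeR's quasi-likelihood test with Benjamini-Hochberg adjustment over all tested genes, and a member was called if its adjusted p did not exceed 0.05 and it differed by 1.5-fold or more. Over the 15 days there were 27 calls of a higher and 5 of a lower level, out of 150 possible. In the first weeks TSC22D3, ZBTB16 and PER1 were called lower on single days. On Day 9, PER1 fell from a median of 46.5 CPM in controls (30.2 to 107) to 28.4 CPM (18.4 to 38.7), a log2 change of -0.77 ± 0.12 (SE, adjusted p = 9.63e-06), and was lower in 21 of 24 animals. TSC22D3 fell from a median of 1274 to 855.1 CPM, lower in 22 of 24 animals (log2 -0.70 ± 0.11, adjusted p = 1.57e-05), and ZBTB16 was lower in 21 of 24 (log2 -0.60 ± 0.11). Those 3 lower calls of 10 members stand beside 2.43% of all tested genes called lower on that day. ZBTB16 was also lower on Day 3 (log2 -0.66 ± 0.12, lower in 20 of 24; 4.62% of genes were called lower) and TSC22D3 on Day 21 (log2 -0.64 ± 0.09, lower in 21 of 24; 2.73%). TSC22D3 lost the call of Day 21 (log2 -0.56) when all samples shared 1 fit with a term for library series.

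FKBP5 itself was below the threshold of fold on every early day. Its log2 change was -0.34 ± 0.07 on Day 3 (lower in 20 of 24 animals, adjusted p = 9.71e-05), 0.01 ± 0.10 on Day 6, and between -0.48 and -0.26 on Days 9 to 40. On Day 40 the median of the 24 animals with a control was 141 CPM against 219 CPM, lower in 22 of 24, and the 2 exceptions were B2003 and B2007. Pairs of 1 library series on Day 40 came only from the 4 animals with a series C control, all at 10.7 Gy. B2003, at 1311 CPM, was among them, and in these pairs the log2 change turned to 0.03 ± 0.48.

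CD163, ADORA3 and MAOA behaved otherwise on Day 3. CD163 rose from a median of 51.4 CPM (31.0 to 125) to 92.5 CPM (37.4 to 205), higher in 22 of 24 animals (log2 0.79 ± 0.14, adjusted p = 2.34e-05). MAOA rose from 1.79 to 3.503 CPM, also in 22 of 24 (log2 0.94 ± 0.13, adjusted p = 7.81e-07), and ADORA3 rose in 18 of 24 (log2 0.61 ± 0.14). These 3 higher calls stand beside 6.89% of genes called higher. In the same samples 7 of 9 tested monocyte genes were called higher (median log2 1.01, against -0.06 over all tested genes), and the summed monocyte genes went from a median of 1584 CPM (676 to 4470) to 2430.1 CPM (1420.0 to 4012). Of 6 eosinophil genes 5 were called higher, led by EPX, the eosinophil peroxidase (log2 1.52 ± 0.23). The part of these cells in the 3 calls was not tested. Among the alternatives run on that day ADORA3 alone lost its call, on the deposited log2 values, where its log2 change was 0.56.

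**Figure D3:**
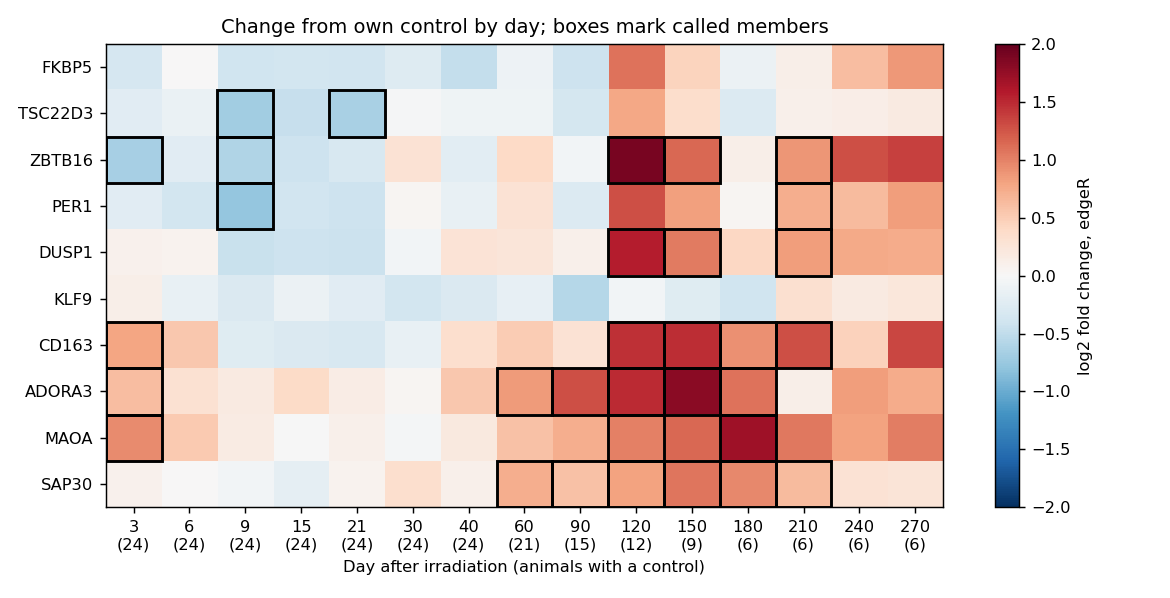
Log2 fold change of each member against the same animals' controls (colour, from -2 to 2) on the 15 scheduled days, with the number of animals in parentheses and a black box where the member was called by edgeR. Boxes for FKBP5 are absent, and the upward boxes lie on Day 3 and from Day 60 to Day 210.

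No member was called on Days 6, 15, 30 and 40, beside 11.5%, 6.01%, 5.90% and 6.92% of all genes. ADORA3 and SAP30 were the earliest to be called later. On Day 60, ADORA3 was higher in 14 of 21 animals (log2 0.85 ± 0.23, adjusted p = 0.0116) and SAP30 in 17 of 21 (0.72 ± 0.19, adjusted p = 0.00945), while 2.31% of genes were called higher. On Day 90, ADORA3 was higher in all 15 animals, at a median of 5.51 CPM against 1.85 CPM (log2 1.28 ± 0.21, adjusted p = 5.39e-04), and SAP30 in 11 of 15 (0.59 ± 0.18), beside 3.87% of genes. SAP30 lost this call on the deposited log2 values (0.56). Of 6 eosinophil genes 5 were called higher on Day 60 (median log2 0.89) and 6 on Day 90 (1.74), and their part in the level of ADORA3 was not tested. Not one of the 17 samples of Day 90 had FKBP5, ZBTB16 or PER1 above the highest control. KLF9 had its lowest log2 change of the 15 days then (log2 -0.57 ± 0.17, adjusted p = 0.0217), just short of the fold of 1.5.

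On Day 120, 6 members were called higher in the 12 animals with a control, beside 12.7% of tested genes. ZBTB16 went from a median of 21.1 CPM (8.27 to 66.0) to 47.6 CPM (12.2 to 744), with a log2 change of 1.90 ± 0.71 (adjusted p = 0.0368), yet only 7 of 12 animals were higher. DUSP1 (log2 1.57 ± 0.44, adjusted p = 0.00867) was higher in 10 of 12, CD163 (1.46 ± 0.35, adjusted p = 0.00313) in 11 and ADORA3 (1.49 ± 0.23, adjusted p = 1.59e-04) in all 12. MAOA (1.00 ± 0.38) and SAP30 (0.81 ± 0.19) were higher in 9 and 10 animals. FKBP5 was not called, at 1.09 ± 0.51 (adjusted p = 0.0909), and 5 of the 12 animals were between 1596 and 2139.7 CPM while 7 remained between 106 and 283 CPM, of which 5 were below their own control. PER1 (1.29 ± 0.55, adjusted p = 0.0620) and TSC22D3 (0.77 ± 0.35, adjusted p = 0.0828) were not called either, with 6 animals up and 6 down. FKBP5 and PER1 were called by DESeq2, by limma on the deposited values, without the replicate block and in the fit over all samples, with log2 changes of 1.19 to 2.26 for FKBP5. The median of all tested genes lay at -0.15 on this day, so the members' changes relative to it are larger by that much. MAOA lost its call on the deposited log2 values (0.85, adjusted p = 0.0666).

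On Day 150, ZBTB16 (log2 1.15 ± 0.40), DUSP1 (1.03 ± 0.36), CD163 (1.48 ± 0.24), ADORA3 (1.81 ± 0.34) and SAP30 (1.08 ± 0.26) were called, all higher, beside 31.5% of genes called in either direction. Of all 13751 tested genes, 1648 were called higher and 2677 lower on that day. CD163, ADORA3 and SAP30 were higher in all 9 animals. The highest ADORA3 of the series, 26.0 CPM in B1003, came on this day, in the sample with the highest sum of eosinophil genes (1103 CPM, against 29.7 to 210 CPM in controls). Across all samples, centred per animal, the log2 level of ADORA3 had r = 0.58 with the eosinophil sum, whose points share library and depth, and the other 9 members had r from -0.23 to 0.16.

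Only 6 animals were left from Day 180 on, so each weighs much. On Day 180, MAOA was higher in all 6, at a median of 6.79 CPM against 1.59 CPM (log2 1.70 ± 0.31, adjusted p = 0.00207), and so was SAP30 (0.95 ± 0.22). CD163 and ADORA3 were also called, beside 8.81% of genes, and 2 to 4 members were called higher when 1 animal was left out, with 2 calls without B1505 or B2502. On Day 210, ZBTB16 (0.89 ± 0.32), PER1 (0.72 ± 0.26), DUSP1 (0.83 ± 0.26), CD163 (1.28 ± 0.32) and SAP30 (0.63 ± 0.22) were called, beside 12.8% of genes. On this day FKBP5 was between 153 and 335 CPM, and its log2 change was 0.12 ± 0.21. The 5 calls became 1 without B1004 or B2502, 2 without B1003 or B1503 and 3 without B1505. On Days 240 and 270 no member was called, beside 6.76% and 0.00727% of genes. FKBP5 and ZBTB16 were then high in B1503 and B2502 and between 123 and 235 CPM (FKBP5) and 10.2 and 21.2 CPM (ZBTB16) in the other 4 animals, and the log2 change of ZBTB16 was 1.28 ± 0.69 and 1.37 ± 0.76. On Day 270 edgeR left 4060 genes at an unadjusted p under 0.05 and DESeq2 called 2 members beside 1366 genes higher and 978 lower. Without B1003 edgeR called 700 genes higher and 651 lower on that day, and 1 member.

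**Figure D4:**
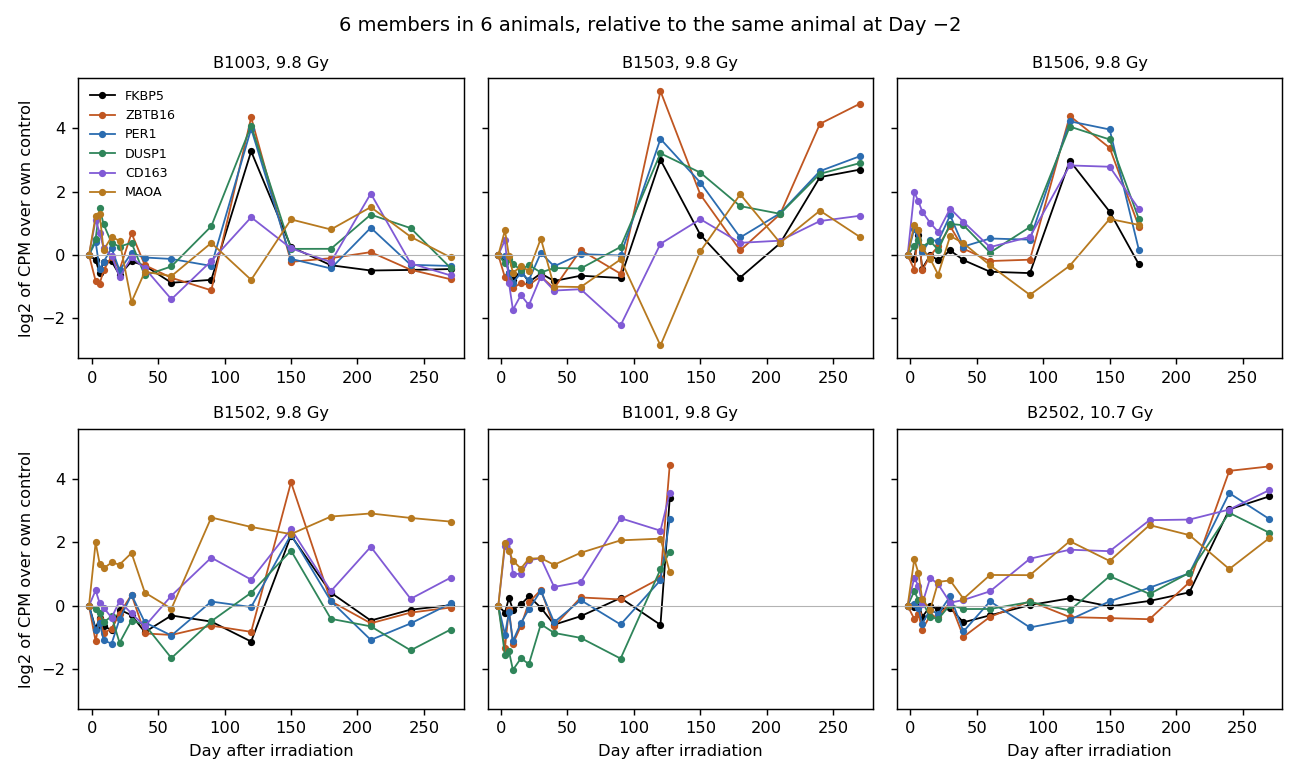
Log2 ratio of CPM to the animal's own control at Day -2 for 6 members (lines) in 6 animals (panels) against the day after irradiation. FKBP5, ZBTB16, PER1 and DUSP1 are high in the same draws, on Day 120 in B1003, Days 120 and 150 in B1506, Day 150 in B1502, Day 127 in B1001, Days 240 and 270 in B2502 and in 2 periods in B1503.

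Last draws were compared in the 22 animals without a sample on Day 270. FKBP5 was above the highest control in 8 of these 22 last draws, which ranged from 83.4 to 2648 CPM (median 226). ZBTB16 and PER1 were so in 9, DUSP1 and ADORA3 in 11, CD163 in 14 and SAP30 in 15. MAOA was so in 10, TSC22D3 in 6 and KLF9 in 2. This count was not made over all tested genes, so it is not shown to be particular to the members. Against the draw before, FKBP5 was higher in 13 animals and lower in 9 (log2 0.59 ± 0.40, adjusted p = 0.396), and ZBTB16 was likewise (0.88 ± 0.56, adjusted p = 0.365). CD163 was higher in 14 (0.82 ± 0.34, adjusted p = 0.215). No member and none of the 13751 genes (0%) was called by edgeR, with 2552 genes at an unadjusted p under 0.05, while DESeq2 called 159 genes higher and 50 lower but no member. In the 8 animals with an unscheduled draw FKBP5 went from 317 to 2057 CPM in B2004, from 146 to 488 in B2504 and from 115 to 1857 in B1001, but from 594 to 180.0 in B2501 and from 524 to 165 in B1506. It was higher in 4 and lower in 4, an exact paired permutation test over all sign changes gave p = 0.445 (two-sided; the smallest possible is 0.00781), and the 10 members had p from 0.180 to 1.00. Again no gene was called (0%), with 248 at an unadjusted p under 0.05 by edgeR and none called by DESeq2.

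The doses were compared on the 8 scheduled days up to Day 60, with sex as a term. No member was called on Days 3 to 40, where edgeR called 0% of all genes except on Day 21 (0.153%). Between 780 and 2241 genes were at an unadjusted p under 0.05 on these days by edgeR. DESeq2 called 1 member, on Day 40, beside 52 genes called higher and 16 lower. On Day 60, 6 of 10 members were higher at 10.7 Gy (12 animals) than at 9.8 Gy (12 animals), beside 9.24% of genes. CD163 ranged from 46.5 to 520 CPM (median 172) against 25.1 to 114 CPM (median 40.2), and 8 of the 12 animals of the higher dose lay above every animal of the lower dose (log2 1.90 ± 0.35, adjusted p = 0.00133). DUSP1 had a median of 374 against 150 CPM, with 4 of 12 above the highest of the lower dose (1.90 ± 0.44, adjusted p = 0.00379). PER1 (1.63 ± 0.40, adjusted p = 0.00546) and ZBTB16 (1.72 ± 0.48, adjusted p = 0.0104) had 5 and 4 such animals, and MAOA (1.15 ± 0.29) and SAP30 (0.84 ± 0.28) had 4 and 5.

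FKBP5 did not differ by the thresholds (log2 0.71 ± 0.29, adjusted p = 0.0616), with medians of 162 at 10.7 Gy and 168 CPM at 9.8 Gy. The animals B2001, B2004, B2501 and B2505 were the 4 of the higher dose above the highest value of the lower dose for FKBP5, at 317 to 717 CPM against at most 269 CPM, and also for ZBTB16 and DUSP1. For these genes the other 8 animals overlapped the lower dose. All 12 samples of 10.7 Gy were of library series C and 4 of the 12 of 9.8 Gy were of series B. With series C alone, an alternative chosen after the data were seen, ZBTB16, PER1, DUSP1, CD163 and MAOA were still called, SAP30 was not (log2 0.61 ± 0.31, adjusted p = 0.153) and KLF9 was (1.21 ± 0.39, adjusted p = 0.0329). That fit called 1028 of 13751 genes higher and 1050 lower. By DESeq2 all 10 members were called higher, beside 1734 of 13751 genes called higher and 848 lower. On the deposited log2 values with limma, ZBTB16 (log2 1.07, adjusted p = 0.0973) and SAP30 (0.74, adjusted p = 0.0534) were not called.

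**Figure D5:**
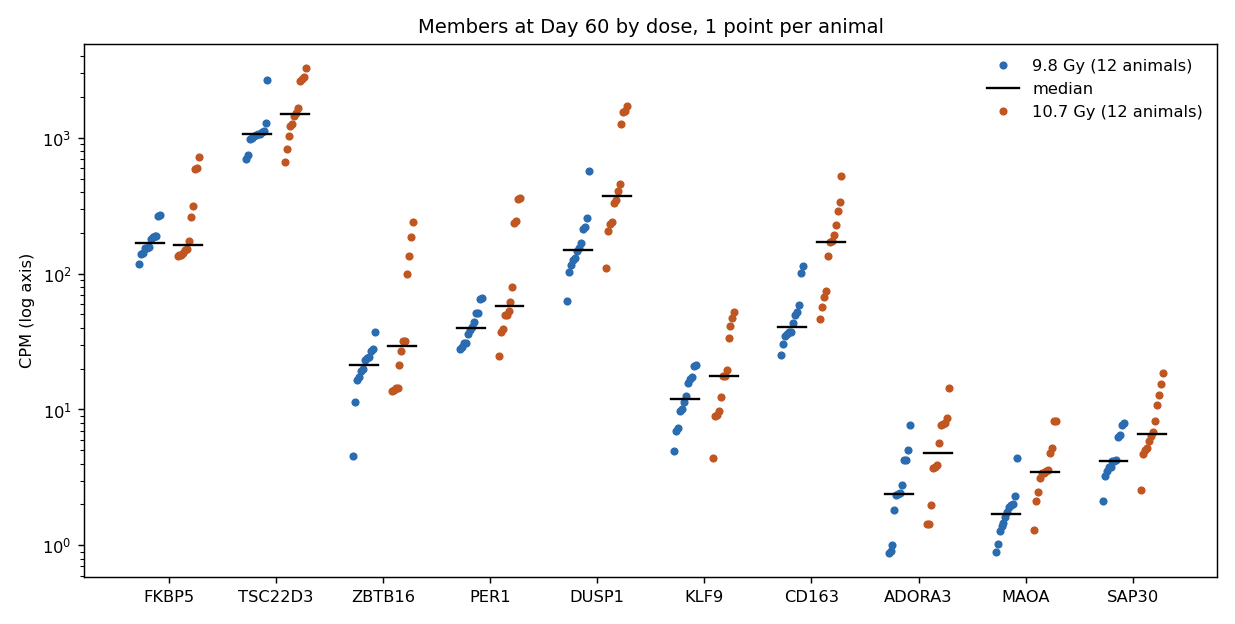
CPM on a log axis of the 10 members at Day 60, with 1 point per animal (blue, 12 animals at 9.8 Gy; orange, 12 at 10.7 Gy) and a black line at the median. For FKBP5, ZBTB16, PER1 and DUSP1 a few orange points stand above a body that overlaps the blue ones, whereas most orange points of CD163 lie above the blue ones.

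The markers of blood cells differed between the doses on Day 60 too. Of 11 neutrophil genes 8 were called higher at 10.7 Gy (median log2 1.45 against -0.08 over all tested genes), led by S100A9, S100A8 and MMP9, and the summed neutrophil genes had medians of 6823 and 2029 CPM (2607 to 19077 against 667 to 5956). Of 9 monocyte genes 6 were called higher. Of 23 tested genes from a list of other genes raised by glucocorticoids, 15 were called higher and 1 lower, with a median log2 of 1.32. IL1R2, a decoy receptor for interleukin-1 (3.05 ± 0.67), ALOX5, which starts leukotriene synthesis (1.97 ± 0.46), and CEBPD, a transcription factor of myeloid cells (1.77 ± 0.36), led it. The part of neutrophil and monocyte numbers in these values was not tested.

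The other genes of the pathway on Day 120 were as follows. Of the same 23 genes 14 were called higher and 1, the lymphocyte receptor IL7R, lower (median log2 1.09 against -0.15 over all tested genes). IL1R2 rose by 2.87 ± 0.83, IRAK3, an inhibitor of Toll-like receptor signalling, by 2.48 ± 0.43 and THBD, the anticoagulant thrombomodulin, by 2.06 ± 0.36 on the log2 scale. In the 6 draws of Day 120 with FKBP5 above the highest control IL1R2 was between 1023 CPM (B1005) and 2598 CPM (B2507), and in the other 8 between 37.9 CPM (B1505) and 111 CPM (B1001). On Days 150, 180 and 210, 13, 9 and 12 of the 23 genes were called higher and 1 lower each time, beside 31.5%, 18.7% and 29.8% of all genes called in either direction, and on Day 240 it was 1 higher. Of 13 genes of the receptor and its chaperones 5 were called lower and none higher, beside 2623 of all 13751 genes called lower, led by FKBP4, the co-chaperone that competes with FKBP5 (-1.36 ± 0.23), STIP1, which bridges HSP70 and HSP90 (-1.31 ± 0.18), and HSP90AB1 (-1.28 ± 0.19). FKBP4 was between 4.61 CPM (B2507) and 20.7 CPM (B1005) in the 6 draws with high FKBP5 and between 22.7 CPM (B1004) and 43.3 CPM (B1502) in the other 8. IL1R2 and FKBP4 were picked for this split after values were seen. How many of all tested genes part the same draws was not counted, so the split is not shown to be particular to them.

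Of 9 cytokine genes that glucocorticoids are known to lower, 4 were called higher and 1 lower on Day 120, and PTGS2, the inducible cyclooxygenase (1.75 ± 0.22), CXCL8, a neutrophil chemokine (1.47 ± 0.25), and IL18, an interleukin (1.27 ± 0.30), were among the higher ones. These 3 genes moved against the name of the list.

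Cell type markers also differed from controls on Day 120. All 8 B cell genes (median log2 -1.94) and 7 of 9 T cell genes (-1.23) were called lower, and 9 of 11 neutrophil genes higher (1.32), led by S100A8 (2.27 ± 0.25). Of 6 eosinophil genes 1 was called higher and none lower (median log2 0.70). All 8 B cell genes were also called lower on Days 3, 6 and 9, when no sample had FKBP5 above the highest control. The summed T cell genes were between 258 and 2047 CPM in the 14 animals, against 1027 to 2946 CPM in controls, and the summed neutrophil genes between 3354 and 18150 CPM, against 915 to 8586 CPM. The lowest T cell sum of the day, 258 CPM, came from the draw with the highest FKBP5. B1003 had a T cell sum of 1572 CPM on Day 90, 612 on Day 120 and 1233 on Day 150. In B1503 it was 1575, 624 and 756 CPM on Days 90, 120 and 150, rose to 1079 CPM on Day 180 and was 343 CPM on Day 270. Centred per animal over all samples, the T cell sum had r = -0.79 with ZBTB16, -0.75 with DUSP1, -0.72 with PER1 and -0.69 with FKBP5, but -0.23 with MAOA. CD163 had its highest r, 0.89, with the monocyte sum, and DUSP1 had 0.87 with the neutrophil sum. These correlations are descriptions, since the points share animals, libraries and depth, and the part of the cell numbers in the members' levels was not tested.

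The genes most like FKBP5 over all samples, by Pearson's r of log2 CPM centred per animal, began with ZBTB16 (r = 0.90, Spearman's rho 0.67). Then followed IL18R1, a subunit of an interleukin receptor (0.88), ZC3H7A (0.86), TXNIP, an inhibitor of thioredoxin and glucose uptake (0.84), PER1 (0.83), INSR, the insulin receptor (0.83), GK5 (0.83), SLA, an adaptor that damps antigen receptor signals (0.82), PFKFB2, a regulator of glycolysis (0.82), and SLC39A8, a zinc importer (0.81). The median gene had r = -0.21, and 1% of genes were above 0.68. Of the members, TSC22D3 ranked 25 (0.78), DUSP1 142 (0.68), CD163 545 (0.58), KLF9 1911 (0.37), SAP30 2332 (0.31), ADORA3 3090 (0.19) and MAOA 3283 (0.17). IL18R1 went from at most 26.7 CPM in controls to as much as 1704 CPM, INSR from at most 25.6 to 410.3 CPM and TXNIP from at most 5191 to 22767 CPM.

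The likeness was closer in late samples. In the 70 samples from Day 90 on, r was 0.97 for ZBTB16 and 0.97 for IL18R1, and 6 of the same 10 genes led the ranking. In the 184 samples up to Day 30, a choice made after the data were seen, ZBTB16 had r = 0.53, IL18R1 0.25 and PFKFB2 0.08, and only 1 of the 10 genes was among the leading 10. The r of all genes was lower in that period too, with 1% of genes above 0.40 up to Day 30 and above 0.82 from Day 90 on. By that measure ZBTB16 remained among the leading 1% up to Day 30, and IL18R1 and PFKFB2 did not. Within single animals, ZBTB16 and FKBP5 were positively correlated in all 26 animals with at least 6 samples, at a mean r of 0.74 ± 0.28 (SD).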

How the data were processed

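Total RNA of whole blood, depleted of ribosomal RNA, was sequenced by the authors from 304 samples. Per the labels, reads were trimmed with cutadapt 2.10, aligned with STAR 2.7.6a to Mmul_10 and counted on genes with Subread 2.0.1 (strand setting not given in the sources used here). The authors deposited raw counts of 21070 genes and a table of log2 values scaled by the upper quartile. A gene was tested if 80% or more of the samples held 3 or more counts of it (13751 genes). The counts were compared with the quasi-likelihood test of edgeR 4.0.16 with upper quartile scaling, Benjamini-Hochberg adjustment over all tested genes and the animal as a block, and a call needed an adjusted p not over 0.05 and a 1.5-fold difference. The animal block rests on the animal names in the labels. A last or unscheduled draw was paired with the preceding draw. Doses were compared with sex as a term. DESeq2 1.42.0, limma 3.58.1 on the deposited log2 values, TMM scaling, no filter and other fits were alternatives. Log2 CPM used a prior count of 2. Errors are standard errors, the size of a log2 change divided by the root of its F, unless named SD. Of the steps across genes, the edgeR fit of a day against own controls was tested on simulated data, for some of the days.

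The members and gene lists were chosen with earlier results of these data known. The genes named are the members, the 10 genes with a symbol most like FKBP5, and at most 3 genes of a list, those with the largest change among the called ones. IL1R2 and FKBP4 in single draws, and the TGACGTCA site and the sites within genes, were chosen after values or sequences were seen. Coordinates and sequences come from the Mmul_10 RefSeq assembly.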

Additional observations from a re-analysis of the deposited data

Results flagged for a closer look

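Dixon's test at the 95% level was applied to log2 CPM of the 10 members in the groups of 1 dose and day with 5 to 8 animals, 60 combinations of gene and group, of which chance alone gives about 1 in 20. There were 9 with a sample apart from the others. At 9.8 Gy on Day 240, B1503 was apart for FKBP5 (1335 CPM against 123 to 214 in the other 4 animals), TSC22D3 (5240.0 against 600.2 to 1101), ZBTB16 (364 against 10.2 to 21.2), PER1 (250.2 against 31.5 to 40.4) and DUSP1 (1211 against 149 to 267). On Day 270 the same animal was apart for FKBP5 (1573 against 146 to 235) and ZBTB16 (565 against 14.8 to 20.8). On Day 180, B1502 was apart for FKBP5 (309.7 against 149 to 172) and B1505 for SAP30 (8.95 against 6.63 to 7.14). The labels do not tell whether an animal was under steroid treatment at a draw, and the cause was not tested.

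The change from own control to Day 60 differed between the doses for 7 members by a test of the difference itself (edgeR, animal block, 9 animals at 10.7 Gy and 12 at 9.8 Gy), a fit that called 1440 of 13751 genes higher and 1731 lower. On the log2 scale the change at 10.7 Gy exceeded that at 9.8 Gy by 2.20 ± 0.37 for DUSP1 (adjusted p = 1.49e-04), 1.99 ± 0.29 for CD163 (adjusted p = 4.23e-05), 1.35 ± 0.46 for ZBTB16, 1.32 ± 0.44 for PER1, 1.17 ± 0.34 for MAOA, 1.07 ± 0.32 for SAP30 and 0.92 ± 0.20 for TSC22D3 (adjusted p = 0.00172). For FKBP5 it was 0.64 ± 0.25 (adjusted p = 0.0535). The same test on Day 40 called no member, beside 4 genes higher and 1 lower, and both tests were chosen after the data were seen. The 4 samples of Day 60 in library series B were all of 9.8 Gy, and the controls of series C were all of animals given 10.7 Gy. The change from control thus crosses library series differently by dose, and its part was not tested.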

How the results depend on the processing

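The calls below are counts of the 10 members. Without the replicate block, 6 were higher on Day 60 in place of 2, and 430 of 13751 genes in place of 317. When all samples shared 1 fit with a term for library series, 3 were higher on Day 40 in place of 0, 4 each on Days 60 and 90 in place of 2, 8 on Day 150 in place of 5, and 7 and 6 on Days 240 and 270 in place of 0, while 0 in place of 1 were lower on Day 21. The genes called higher in this fit also rose in number, from 559 to 794 on Day 40, 317 to 418 on Day 60 and 532 to 715 on Day 90. They rose from 1648 to 1837 on Day 150, from 448 to 1726 on Day 240 and from 0 to 2077 on Day 270. The sum of the members' higher calls over the 15 days was 52 in place of 27. With TMM scaling 1 was higher on Day 6, and on Day 120 the genes called were 2081 higher and 1981 lower in place of 1745 and 2623. DESeq2 called 1 higher on Days 6 and 40 and 2 on Day 270, and between the doses 1 on Day 40 and 10 on Day 60 (in place of 6). Between the doses it called 52 of 13751 genes higher on Day 40 and 1734 on Day 60, in place of 0 and 1271. The deposited log2 values with limma gave 1 higher and 1 lower on Day 90. With pairs of 1 library series only, from 4 animals that include B2003, 2 were higher on Day 40, beside 474 of 13751 genes. FKBP5 there reversed to a log2 change of 0.032. Leaving out 1 animal gave 2 to 4 higher and 0 to 1 lower (without B1503) on Day 180, 1 to 5 higher on Day 210 and 0 to 1 (without B1003) on Day 270. Of the 10 genes most like FKBP5, 6 were shared from Day 90 on and 1 up to Day 30. Up to Day 30 the r of KLF9 was -0.023 and that of ADORA3 -0.11, and from Day 90 on that of MAOA was -0.083. The replicate block and the other alternatives changed the count of calls by no more than 1.5 times elsewhere. The cause of these differences was not tested. Depth limits ADORA3, MAOA and SAP30, and on Day 40 the calls were 0 with and without B2007, an alternative chosen after the data were seen.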
